A study of Solanum tuberosum with 10 samples.

Results

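The gene described here is PGSC0003DMG400002899, which the study named the ethylene-responsive transcription factor ERF017 and which is called ERF017 below. It is 1 member of the 40430 features measured, and it was found by its identifier alone. The study listed it among its transcription factors because it was higher after ultrasound at 24 h and at 4 w, so it was chosen by the same control and ultrasound libraries that are compared below. Every difference between ultrasound and control is therefore given as a description, with no test and no p-value. Only its change over time was tested, and the gene was not chosen for that change. The test used the same libraries, however, and its residual was made of the differences between ultrasound and control. The gene lies on chromosome 12 of the SolTub 3.0 potato build, from 3156787 to 3157787 on the plus strand, a span of 1001 bases, and 0 other features of the table overlap it.

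The plants were wild-type in vitro plantlets of the potato cultivar Desirée, and the samples were single-node explants cut from plantlets aged 4 w. The ultrasound group (US) received ultrasound of 35 kHz for 20 min at a power of 70 W, and the control group was not. Both were grown on Murashige and Skoog medium without growth regulators, and RNA was sequenced directly after the exposure (0 h), on the next 2 days (24 h and 48 h) and later in the subculture (1 w and 4 w). That gave 10 libraries, 5 from control and 5 from US material. Each group held 1 library, described in the labels as a single replicate and in the methods as a pool of 3 biological replicates, so that no spread between replicates can be given. The labels name leaf throughout, whereas the methods describe explants up to 48 h and leaves, stems and roots of plantlets at 1 w and 4 w, so the later times and the kind of material cannot be told apart. In such bulk RNA, fewer cells of a type and less RNA per cell cannot be told apart either.

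Ethylene-responsive factors form part of the AP2/ERF family, plant transcription factors that bind DNA through an AP2 domain. Many of them recognise GC-rich elements in the promoters of stress genes, and some act at the end of the pathway that begins when 1-aminocyclopropane-1-carboxylate (ACC) synthase makes the precursor of the gaseous hormone ethylene. Members of the family are known for quick and transient transcription after wounding, touch, cold or attack by pathogens.

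Library totals lay between 33850938 reads (control at 0 h) and 45899162 reads (control at 24 h). Levels are given as RPM, reads per 1000000 reads of the library, and 1 RPM stood for 33.9 to 45.9 reads. The floor of 3 reads, the limit that a count of 0 allows, was 0.0654 to 0.0886 RPM. By correlation of log2 RPM over 20494 genes, 8 of the 10 libraries had the same time point of the other treatment as their nearest neighbour. The exceptions were the 24 h control and the 48 h US library, which were closer to each other (r = 0.966) than to their partners of the same time (r = 0.953 and 0.943). The values of ERF017 at 24 h and 48 h are therefore also given across these times below. Chlorophyll a-b binding proteins and a chloroplast carbonic anhydrase, taken as markers of green leaf, had reads in all 10 libraries for 8 of 8 genes. Their summed level lay between 191 RPM (0 h) and 1313 RPM (1 w) in the controls and between 419 RPM (1 w) and 684 RPM (48 h) in US. In US at 0 h the carbonic anhydrase alone held 524 of 586 RPM. Without it, the sum in US was lowest at 0 h (62.3 RPM) and highest at 1 w (400 RPM).

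ERF017 was high in fresh explants, lowest in plantlets at 1 w, and peaked in US material at 24 h. In the control course it had 1960 reads at 0 h, which is 57.9 RPM with an exact Poisson 95% interval of 55.4 to 60.5. At 24 h the control held 696 reads, or 15.2 RPM (14.1 to 16.3), and at 48 h it held 795 reads, or 20.9 RPM (19.5 to 22.4). After that the transcript almost disappeared from the control, and the intervals quoted here cover counting error only. At 1 w there were 12 reads, or 0.295 RPM (0.152 to 0.515), and at 4 w there were 66 reads, or 1.44 RPM (1.11 to 1.83). All 3 control explant libraries thus lay above both control plantlet libraries.

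The US course began below the control and then crossed it. At 0 h, directly after the exposure, US held 1428 reads, or 39.2 RPM (37.2 to 41.2). At 24 h it held 4125 reads, or 105 RPM (102 to 108), the highest level of the 10 libraries. The peak was gone a day later, at 48 h, when 241 reads or 5.83 RPM (5.12 to 6.62) were left. At 1 w US was at 18 reads, or 0.444 RPM (0.263 to 0.702), as low as the control within counting error. At 4 w it was back at 810 reads, or 20.5 RPM (19.1 to 22.0), a level close to that of the control at 48 h.

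**Figure D1:**
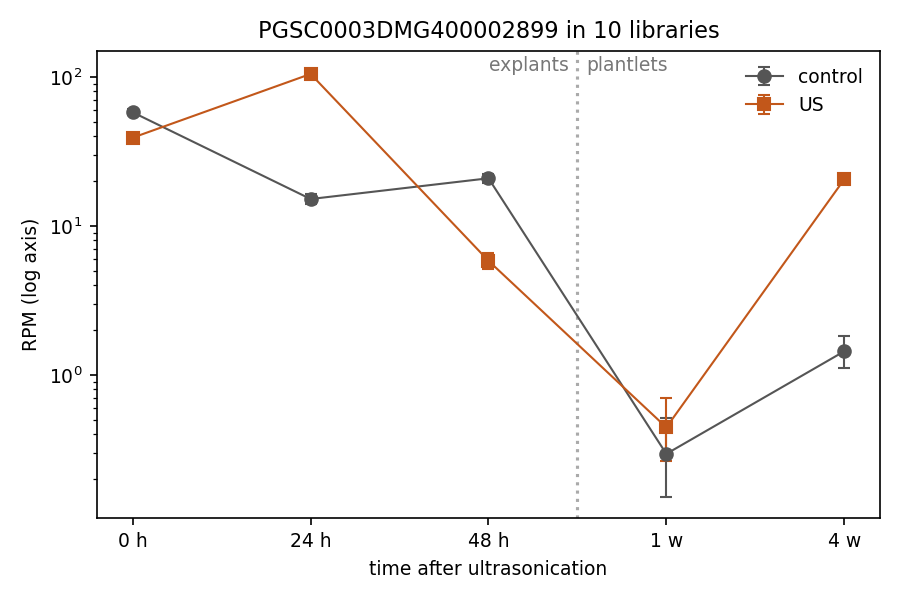
Level of ERF017 in RPM (log axis) by time after ultrasonication, with 1 control library (circles) and 1 US library (squares) per time and bars for the exact Poisson 95% intervals. US at 24 h stands highest at 105 RPM, both libraries at 1 w lie below 1 RPM, and at 4 w US (20.5 RPM) is well above the control (1.44 RPM).

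From high to low, US at 24 h came first, followed by the control and then US at 0 h. Next came the 48 h control, US at 4 w, the 24 h control and US at 48 h, and last were the control at 4 w, US at 1 w and the control at 1 w. Neighbours in that order were compared by the ratio of their RPM with an exact conditional 95% interval (Clopper-Pearson) from the reads. The 48 h control and the 4 w US library were not apart beyond counting error (ratio 1.02, 0.922 to 1.12). The same held for the lowest pair, US and control at 1 w (ratio 1.51, 0.686 to 3.43). The other neighbours were apart, with ratios from 1.35 (1.22 to 1.50) between US at 4 w and control at 24 h to 4.05 (3.07 to 5.40) between US at 48 h and control at 4 w. The highest library exceeded the lowest 355-fold (203 to 688), a range of 8.47 on the log2 scale. The standard deviation of its log2 RPM over the 10 libraries was 2.95, and 115 of 20494 genes had a larger one (genes whose log2 RPM averaged 0 or more). The range and this spread contain the 24 h and 4 w values on which the gene was chosen, so nothing is read from their size.

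US material differed from the control in both directions, depending on the time. ERF017 was 6.91-fold higher in US at 24 h (6.38 to 7.50), a log2 difference of 2.79, and 14.3-fold higher at 4 w (11.1 to 18.6), a log2 difference of 3.83. It was 1.48-fold lower in US at 0 h (1.38 to 1.58), a log2 difference of -0.56, and 3.58-fold lower at 48 h (3.10 to 4.15), a log2 difference of -1.84. The difference of 0.59 at 1 w lay within counting error, since the interval of its ratio of 1.51 included 1. With 12 and 18 reads, a difference of less than about that interval was not detectable at 1 w.

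A fixed rule of size was used to set these differences beside those of other genes: at least 1 RPM in the higher library and a log2 difference of at least 2, that is 4-fold. ERF017 passed it at 24 h and at 4 w, the times on which it was chosen. At 24 h, 1.40% of 21414 genes passed as higher in US, and 79 had a larger difference than ERF017. At 4 w, 2.39% of 21114 passed as higher, and 84 had a larger difference. Nothing is read from these shares, since the gene was selected on the same contrasts. It did not pass as lower at 0 h, where 2.06% of genes did and 4318 of 21236 had a lower difference, nor as lower at 48 h, where 2.80% did and 749 of 21785 had a lower difference. At 1 w, where 0.562% passed as higher, 2428 of 21701 genes had a larger difference.

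**Figure D2:**
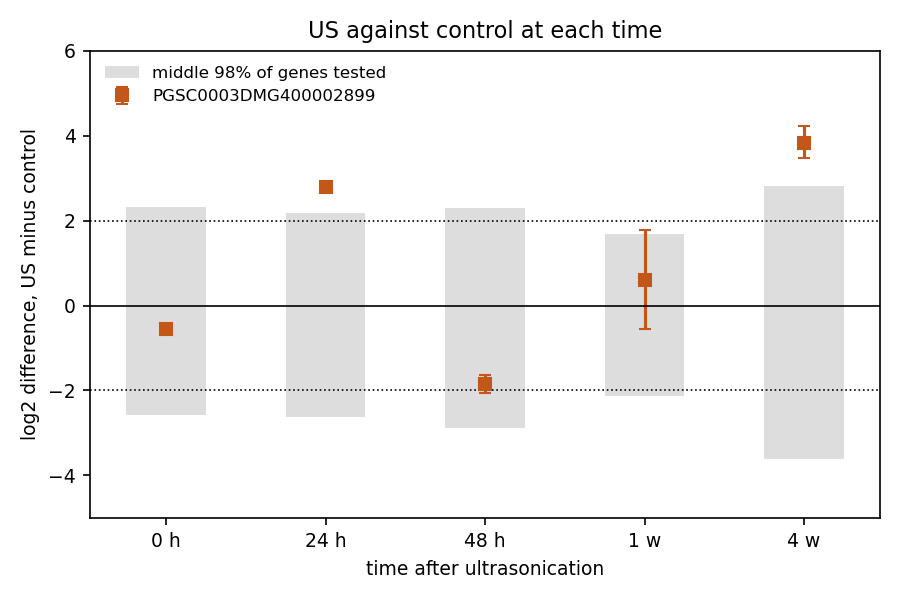
Log2 difference of ERF017, US minus control, at each time (squares, bars for the exact 95% intervals of the ratio), over the range that holds the middle 98% of the genes compared at that time (grey), with dotted lines at the rule of size. The gene lies above the grey range at 24 h (2.79) and 4 w (3.83), and inside it at 0 h (-0.56), 48 h (-1.84) and 1 w (0.59).

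Taken over the 5 times, ERF017 was higher in US 3 times and lower 2 times. The limma estimate of the US effect, with time as a block, was 0.96 on the log2 scale with a standard error of 0.74. The standard deviation of the 5 differences was 2.34, which contains the 24 h and 4 w values on which the gene was chosen, so nothing is read from its size. The average came to 0.24 when the 4 w pair was left out, to 0.50 when the 24 h pair was and to 1.66 when the 48 h pair was, so that the 4 w, 24 h and 48 h libraries each moved it by over 1.5 times. The average therefore says less about this gene than the single times do.

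The change of direction from 24 h to 48 h was common in the table. Of the 300 genes that passed as higher in US at 24 h, 252 (84.0%) were lower in US at 48 h, and 188 (62.7%) were lower by at least 1 on the log2 scale, as ERF017 was. Over all 21785 genes compared at 48 h the median difference was -0.07, and 2.80% passed as lower by the rule of size. In either direction, 4043 of these differed by at least 1. The shares of all genes lower by any size or by at least 1 are not given here. Across 20494 genes, which are not independent replicates, the 24 h and 48 h differences had a correlation of r = -0.54. Set across the times, US at 24 h was 5.02-fold above the control at 48 h (4.65 to 5.42). As the highest library, and one on which the gene was chosen, it stood above every control, so nothing is read from this direction. US at 48 h was 2.60-fold below the control at 24 h (2.24 to 3.02), which also took part in the choice. The peak in US at 24 h also stood 1.81-fold (1.71 to 1.91) above the control at 0 h, the highest control library.

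ERF017 was 1 of 24 genes that passed as higher in US at both 24 h and 4 w. They made up 8.0% of the 300 genes at 24 h, and 2.39% of all genes passed as higher at 4 w. They made up 4.75% of the 505 at 4 w, and 1.40% of all genes passed as higher at 24 h. ERF017 was chosen on both times, so nothing is read from its place in this group. Of the 24, 17 were lower in US at 48 h by at least 1, as were 188 of the 300 genes at 24 h. Over all genes, 4043 of 21785 differed by at least 1 at 48 h in either direction. Only 3 of the others carry a name in the study's lists. They are PGSC0003DMG400001396, a probable galacturonosyltransferase-like protein (log2 differences of 2.27 at 24 h and 2.10 at 4 w), PGSC0003DMG400021325, a PUB23-like ubiquitin ligase (2.21 and 5.12), and PGSC0003DMG400026346, an F-box protein (2.56 and 2.26). Ubiquitin ligases and F-box proteins mark other proteins for breakdown, and galacturonosyltransferases help to build pectin in the cell wall. ERF017 was the transcription factor among the named genes of this group, which were singled out after their values were seen.

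Within each treatment the course was followed from time to time. In the control, ERF017 was 3.82-fold lower at 24 h than at 0 h (3.50 to 4.17), a log2 step of -1.93 that just missed the rule of size, which 8.09% of genes passed as lower. The median of all genes moved by 0.39 over this step, and relative to that shift the gene passed the rule: the step was -2.14 after quantile normalization and -2.32 after median-of-ratios scaling. From 24 h to 48 h the control was 1.38-fold higher (1.24 to 1.53), a step of 0.46 that did not pass (3.54% of genes passed as higher). From 48 h to 1 w it was 70.8-fold lower (40.3 to 138), a step of -6.15 that passed with 4.97% of genes. Only 65 of 22136 genes had a lower step there, and the kind of material changed between these times. From 1 w to 4 w the control was 4.88-fold higher (2.62 to 9.92), a step of 2.29 that passed with 1.47% of genes but came to 0.91 on the log2(RPM + 1) scale. That step was from 12 to 66 reads.

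In US material the steps were of other sizes. From 0 h to 24 h ERF017 was 2.68-fold higher (2.52 to 2.84), a log2 step of 1.42 that did not pass the rule, which 11.0% of genes passed as higher. The control had gone the other way over the same day. From 24 h to 48 h it was 18.0-fold lower (15.8 to 20.5), a step of -4.17 that passed with 4.74% of genes, and 197 of 21715 genes had a lower one. From 48 h to 1 w it was 13.1-fold lower again (8.13 to 22.5), a step of -3.71 that passed with 2.80% of genes. From 1 w to 4 w it was 46.2-fold higher (29.1 to 78.4), a step of 5.53 that passed with 4.57% of genes and was exceeded by 75 of 21877. In both treatments the 24 h and 4 w values took part in the choice of the gene. Nothing is therefore read from the passes or ranks of steps that start or end at these times. The level that US plantlets reached at 4 w remained 1.91-fold (1.75 to 2.08) below that of US explants at 0 h.

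Whether ERF017 changed over time was tested with limma on log2 RPM, with treatment as a block and the control and US libraries of a time standing in for replicates. The F test over the 4 time coefficients passed the threshold of 0.05 (F = 11.99, limma adjusted p = 0.00792 after Benjamini-Hochberg adjustment). Since 41.1% of the 20494 genes passed the same test and ERF017 ranked 3287 by its p, a call for change over time was common in the table. Its residual standard deviation of 1.65, against a median of 0.371, was made of the same differences between US and control on which the gene was chosen, and nothing is read from it. The call rested on the libraries at 1 w: without both of them the adjusted p was 0.162. Leaving out any single library gave adjusted p-values from 0.00442 to 0.0490, the highest without US at 1 w.

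The 8 markers of green leaf were set beside ERF017, and over the 10 libraries their correlation with it in log2 RPM ran from -0.92 to 0.61. The negative values, from -0.92 to -0.61, were those of the 7 chlorophyll a-b binding proteins, which hold the pigments that harvest light. The r of 0.61 was that of the carbonic anhydrase, PGSC0003DMG400006956, which helps to supply chloroplasts with carbon dioxide. The summed level of the 7 in the control was 120 RPM at 0 h and 1212 RPM at 1 w. There ERF017 was highest and lowest among the controls. In US the sum was lowest at 0 h, at 62.3 RPM, whereas ERF017 peaked at 24 h. It was 400 RPM at 1 w and 396 RPM at 4 w in US, while ERF017 went from 0.444 to 20.5 RPM. At 24 h, when ERF017 was higher in US, 8 of 8 markers were lower, and at 48 h, when ERF017 was lower, 8 of 8 were higher. At 0 h the 7 chlorophyll a-b binding proteins were lower in US, like ERF017, while the carbonic anhydrase was higher by 2.87, and the log2 ratio of the summed level of all 8 was 1.62. At 1 w 8 of 8 were lower, and at 4 w 3 were higher and 5 lower. Their part in the result was not tested.

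The genes most like ERF017 were found by Pearson correlation of log2 RPM over the 10 libraries, among 20493 other genes. The median r was -0.14, 60 genes were above 0.9, and 384 were above 0.8. These correlations describe libraries that share their depth, their time and their material, and they carry no p. The most similar gene was PGSC0003DMG400001396, the galacturonosyltransferase-like gene (r = 0.977, Spearman's rho = 0.964), on chromosome 2 from 46665732 to 46667302. From 0 h to 4 w its control levels were 93.1, 25.5, 19.5, 1.70 and 7.37 RPM. In US it was at 49.7, 123, 7.70, 2.42 and 31.6 RPM in the same order. It thus shared with ERF017 the start below the control, the peak at 24 h, the lower level at 48 h and the return at 4 w.

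The next were PGSC0003DMG400005899 on chromosome 6 (r = 0.973), PGSC0003DMG400000791 on chromosome 4 (0.968), PGSC0003DMG400021116 on chromosome 2 (0.964) and PGSC0003DMG400006327 on chromosome 1 (0.964), to which the sources used here give no names. PGSC0003DMG400005899 stood at 261 RPM in the control at 0 h and 276 RPM in US at 24 h, against 14.4 and 14.7 RPM at 1 w. PGSC0003DMG400000791 stood at 151 and 131 RPM in the former libraries, and at 11.0 and 12.8 RPM at 1 w. PGSC0003DMG400006327, a weaker transcript, was at 7.09 RPM in the control at 0 h and at 4 and 5 reads in the libraries at 1 w. Each of these genes was high in explants at 0 h and low at 1 w in both treatments.

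Of the 10 most similar genes, 10 were higher in US at 24 h and 0 at 48 h. At 4 w it was 10 again, while 8 were higher at 1 w and 2 at 0 h. They had been picked for a course that contains these differences, so the counts describe the choice. By the rule of size 2 of them passed as higher at 24 h (1.40% of all genes) and 3 at 4 w (2.39% of all genes). The lowest library was at 1 w in 10 of 10, and the highest was the control at 0 h in 6 and US at 24 h in 2. They lie on 6 chromosomes and 0 of them on chromosome 12. The ninth of them, PGSC0003DMG400021508 (r = 0.954), encodes a ZAT10-like zinc finger protein. Membership depended on the measure: by Spearman's rho 3 of the 10 were again among the closest, on the log2(RPM + 1) scale 6, and without single libraries between 5 (without US at 4 w) and 9.

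**Figure D3:**
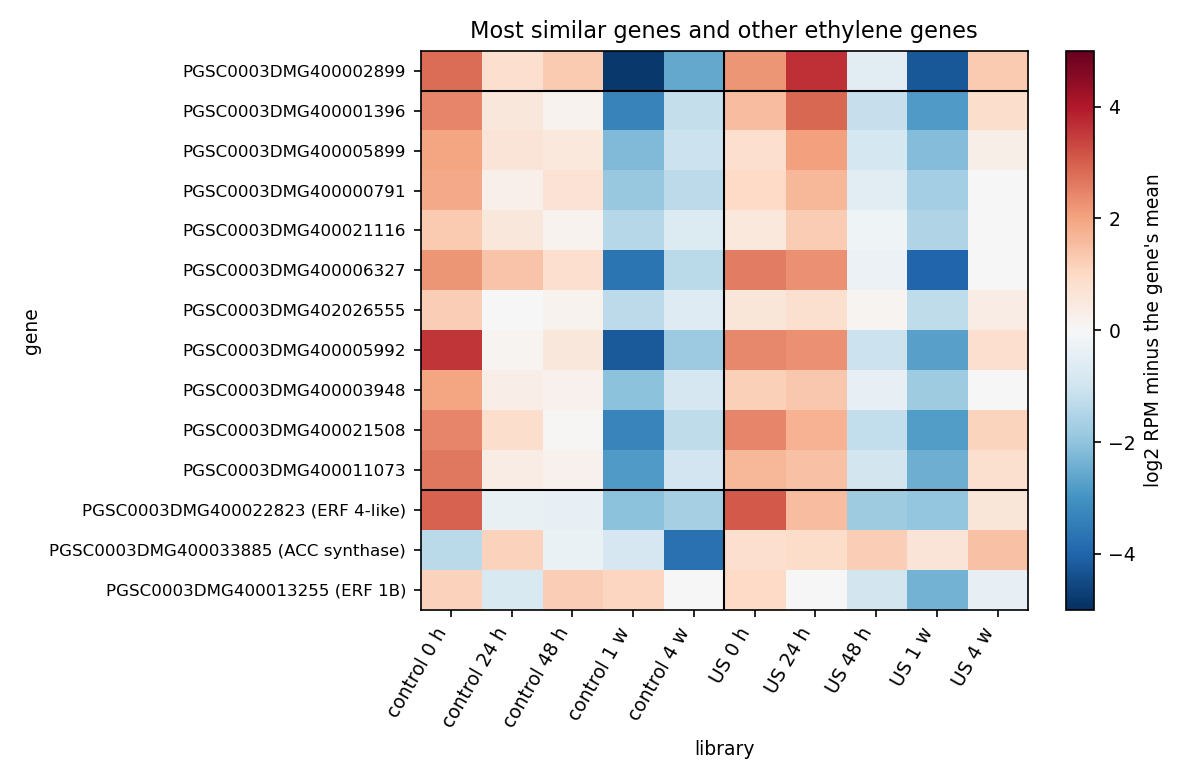
Log2 RPM minus the gene's own mean over the 10 libraries (colour), for ERF017 (top), the 10 genes with the highest Pearson r to it (middle) and the study's other ethylene genes (bottom), with control libraries left and US libraries right of the line. ERF017 has the deepest low at 1 w and its highest value in US at 24 h, the ERF 4-like gene shows a similar order, and ACC synthase does not.

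Likeness in the US differences alone picked other genes. The root mean square distance between the 5 log2 differences of ERF017 and those of another gene had a median of 2.38, and the 5 nearest genes were between 0.68 and 0.72 away. The nearest was PGSC0003DMG400010713, named a putative HARBI1 nuclease, with differences of -0.74, 1.79, -2.21, 0.56 and 2.78 from 0 h to 4 w. Also near were PGSC0003DMG400010759, named histone H3.v1-like (0.72), PGSC0003DMG400022108 (0.68), PGSC0003DMG400010439 (0.70) and PGSC0003DMG400014310 (0.72). Of these, 0 were among the 10 genes of the most similar course. The HARBI1-like gene, for example, was far higher at 0 h, at 1340 RPM in the control and 800 RPM in US, than at 24 h, at 107 and 372 RPM, so that its course in US had no peak at 24 h.

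The other ethylene genes of the study's lists were chosen on these libraries, like ERF017, and are no independent evidence. Over all genes, 1.70% passed as higher at 0 h and 2.39% at 4 w, and 2.80% passed as lower at 48 h and 1.17% at 1 w. PGSC0003DMG400022823, an ERF 4-like gene whose Arabidopsis namesake is a transcriptional repressor, followed ERF017 most closely (r = 0.84). Its US differences from 0 h to 4 w were 0.08, 1.89, -1.36, 0.13 and 2.29, and only the last passed the rule of size. At 24 h it was at 39.2 RPM in the control and 146 RPM in US, and at 48 h at 37.9 and 14.8 RPM. Unlike ERF017 it was highest at 0 h in both treatments, at 391 RPM in the control and 415 RPM in US.

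ACC synthase, PGSC0003DMG400033885, the enzyme that commits the pathway to ethylene, had another course (r = 0.33). Its control levels from 0 h to 4 w were 4.31, 24.1, 8.70, 6.12 and 0.829 RPM. In US it stayed between 17.3 RPM (1 w) and 30.3 RPM (4 w). It passed as higher in US at 0 h, with a difference of 2.20, and at 4 w, with 5.19, but at 24 h, when ERF017 peaked, its difference was -0.23. At 4 w both were higher in US, and at 48 h ACC synthase was higher (1.55) where ERF017 was lower. PGSC0003DMG400013255, ERF 1B, a relative of the Arabidopsis activators of ethylene defence genes, passed as lower in US at 48 h (-2.12) and at 1 w (-3.43), and its difference at 4 w was -0.36 (r = 0.37).

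ZAT10 is a zinc finger protein that in Arabidopsis represses transcription under stress, and 3 ZAT10-like genes are in the study's lists. The study chose these genes too on these libraries, so they are no independent evidence and nothing is read from their counts. Their correlation with ERF017 was between 0.91 and 0.95. By the rule of size 3 of 3 were higher in US at 4 w, as 2.39% of all genes were, with a median difference of 2.70 against 0.02 over all features, and 0 of 3 passed at any other time. At 24 h 3 of 3 were above 0 (median 0.96) and at 48 h 3 of 3 were below it (median -1.31), the same directions as ERF017 at smaller size. PGSC0003DMG400041467 had the largest of their 4 w differences, 3.67, from 3.16 RPM in the control to 40.2 RPM in US, near the 3.83 of ERF017. This gene and PGSC0003DMG400011548 lie close together on chromosome 12.

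**Figure D4:**
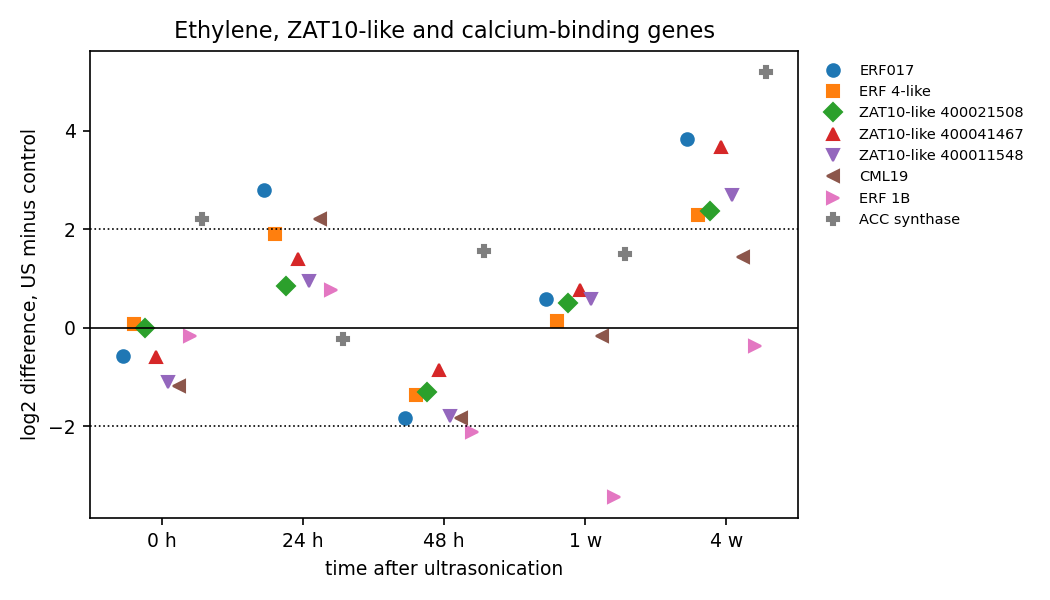
Log2 difference, US minus control, at each time for ERF017, the ERF 4-like and ERF 1B genes, ACC synthase, 3 ZAT10-like genes (by the digits of their identifiers) and the calmodulin-like gene CML19, with dotted lines at the rule of size. ERF017, ERF 4-like and the ZAT10-like genes lie above 0 at 24 h and 4 w and below it at 48 h, while ACC synthase is at -0.23 at 24 h and 5.19 at 4 w.

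The 8 other transcription factors that the study listed shared the course to differing degrees, with r between -0.25 and 0.77. They too were chosen on these libraries. The median r over all genes was -0.14. From 0 h to 4 w, 0, 0, 1, 0 and 1 of them passed as higher in US, and 1, 0, 1, 3 and 1 as lower. Over all genes the shares in the same order were 1.70%, 1.40%, 1.39%, 0.562% and 2.39% as higher, and 2.06%, 1.81%, 2.80%, 1.17% and 3.03% as lower. The closest was a probable WRKY 31, PGSC0003DMG400015015 (r = 0.77), from a family of plant regulators of defence, with 0.01 at 24 h and 1.99 at 4 w, just short of the rule. The 1 that passed as higher at 4 w was FAMA, PGSC0003DMG400015760 (3.63), which in Arabidopsis directs the last step of guard cell formation, and it was lower in US by 1.90 at 24 h, where ERF017 was higher.

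Some genes named by the study were grouped here as touch genes and as wound genes. Their likeness to ERF017 ranged widely. The touch genes had r between -0.42 and 0.86, and the wound genes had r between -0.47 and 0.74. The touch group held 10 calcium and cell wall genes, expansins among them. Its medians were 1.61 at 24 h and -1.90 at 48 h, against -0.07 over all features at both times. Of these genes 10 of 10 lay above 0 at 24 h and 9 of 10 below it at 48 h. By the rule, 3 passed as higher at 24 h (1.40% of all genes) and 4 as lower at 48 h (2.80%), but at 4 w 0 passed as higher (2.39%) and 1 as lower (3.03%), where ERF017 had its largest difference. The calmodulin-like CML19, PGSC0003DMG400040538, a calcium sensor, was closest (r = 0.86), at 18.7 RPM in the control and 86.0 RPM in US at 24 h and with a difference of 1.43 at 4 w. The 14 genes of the wound group were proteinase inhibitors, which defend leaves against chewing insects, wound-induced proteins and a lipoxygenase. Of these, 12 passed as lower in US at 4 w (median -4.35), against 3.03% of all genes. Only 1 passed as higher, against 2.39%. That 1 was the lipoxygenase PGSC0003DMG400010859 (3.67, r = 0.74), from the family of enzymes that oxidise fatty acids of the cell membrane. At 24 h 1 of the 14 passed as higher (1.40% of all genes) and 0 as lower (1.81%), with a median of 0.80, and at 48 h 8 of the 14 were below 0. These lists too were made of genes that the study had chosen on these libraries.

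The features beside ERF017 on chromosome 12 were compared with it by the rule of size and by correlation. Of the 3 on each side, whose nearest ends were 7055 to 19874 bases away, 0 passed the rule of size between US and control at any time. Over all genes only 0.562% to 3.03% passed in a given direction at a time, so nothing is read from this count. For the 5 with enough reads the correlation with ERF017 was between -0.78 and 0.63. The nearest, PGSC0003DMG400002929, was at 730 RPM in the control and 623 RPM in US at 24 h, the time of the peak of ERF017. The feature with the r of 0.63, PGSC0003DMG400002930, was counted at 42236 reads (control) and 39333 reads (US) directly after the exposure, and between 180 and 1896 at the later times. Its US differences from 0 h to 4 w were -0.21, 0.80, -0.88, -0.23 and 0.32, smaller than those of ERF017 and of the same sign except at 1 w.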

How the data were processed

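Per the labels and the methods, mRNA was enriched with oligo(dT) and sequenced from stranded libraries. The authors trimmed reads with Trim Galore 0.5.0, aligned them to SolTub 3.0 with HISAT2 2.1.0 and counted them per gene with SeqMonk at a mapping quality of 60. Whether counting used strand is not given in the sources used here. The deposited values are log2 RPM, in which genes with no read hold a floor worth 0.9 reads. Reads were recovered from these floors: 99.98% of values came within 0.1 of a whole read. The deposited table pairs identifiers with 0 descriptions, so names are those of the study. The protein and promoter sequence of the gene were not analysed here.

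The members and lists were chosen with earlier results of these data known. Named were the gene itself, the 10 with the highest Pearson r (5 with values), the 5 nearest in US differences and 3 features on each side. Lists grouped here from genes that the study named were added. Time was tested with limma 3.58.1 in R 4.3.3 on genes whose log2 RPM averaged 0 or more, after a test on simulated data. Alternatives were quantile and median-of-ratios scaling, log2(RPM + 1), other filters, Spearman's rho and left-out libraries.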

Additional observations from a re-analysis of the deposited data

Results flagged for a closer look

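The US difference of ERF017 had opposite directions under the same contrast at different times. It was 2.79 on the log2 scale at 24 h and 3.83 at 4 w, but -0.56 at 0 h and -1.84 at 48 h. With 1 library per treatment and time, the difference between these effects was not tested. The green leaf markers were lower in US at 24 h for 8 of 8 genes and higher at 48 h for 8 of 8. At 0 h the 7 chlorophyll a-b binding proteins were lower in US, like ERF017, and the carbonic anhydrase was higher. At 1 w 8 of 8 markers were lower, and at 4 w 3 were higher and 5 lower. Their part in the result was not tested. With US at 24 h set against the control at 48 h the log2 difference was 2.33. Nothing is read from that direction, since US at 24 h was the highest library and one on which the gene was chosen. With US at 48 h set against the control at 24 h the difference was -1.38, the same direction as within 48 h.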

How the results depend on the processing

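Recomputing the log2 differences and steps of ERF017 under 3 other scalings gave 39 values. Of these values, 28 stayed within the counting interval, 11 moved and 0 reversed. With median-of-ratios scaling the US difference at 0 h was -0.68, the control step from 0 h to 24 h -2.32 and the US step 1.23, and with quantile normalization these steps were -2.14 and 1.29. On the log2(RPM + 1) scale, which shrinks low levels, the US difference at 4 w was 3.14, the control steps were -4.08 (48 h to 1 w) and 0.91 (1 w to 4 w), and the US steps were -3.95 (24 h to 48 h), -2.24 (48 h to 1 w) and 3.90 (1 w to 4 w). The limma adjusted p for change over time was between 0.00687 and 0.0251 under other filters, scalings and models, between 0.00442 and 0.0490 without single libraries, and between 0.00311 and 0.162 without both libraries of a time, the highest without 1 w. Genes called numbered 8432, between 4428 and 8913 without single libraries (4428 without US at 0 h, 5241 without control at 0 h), and between 1832 and 9080 without both libraries of a time, the lowest without 0 h. The averaged US effect lay between 0.24 and 1.66 without one time. With a log2 difference of 1 in place of 2, genes past the rule of size numbered 4125, 3335, 4043, 1886 and 3821 from 0 h to 4 w, against 797, 687, 913, 375 and 1144. ERF017 then also passed at 48 h. Within a time, no paired analysis was possible because each group held 1 library, and the averaged US effect paired the treatments by time. Depth limits the values at 1 w, where 12 and 18 reads were counted.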
